A study of Homo sapiens with 6 samples.

Results

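Solute carriers are the membrane proteins that move nutrients, ions, vitamins and metabolites across the plasma membrane and the membranes of organelles, and this account follows their RNA in Huh7 cells after knockdown of ABL1. The members are all rows of the deposited expression table whose gene symbol begins with SLC or SLCO followed by a number, apart from 5 symbols that are not covered here (SLC40A1, SLC25A20, SLC7A1, SLC7A5 and SLC7A11). That gave 188 transcript rows of 173 symbols, out of 10191 rows in the table, and the rows were grouped by SLC family number and by what the family carries. Huh7 is an established human hepatocellular carcinoma line. The ABL1 knockdown cells carried a short hairpin RNA against ABL1, which encodes a tyrosine kinase of the cytoplasm and nucleus, and the control cells a scrambled hairpin; both were taken 1 week after puromycin selection, which both groups underwent. There were 3 libraries of total RNA per group, from cells grown in DMEM. The labels give neither the hairpin's sequence nor whether the replicates were separate cultures, and every p-value therefore reflects the scatter of these libraries alone, which may be technical scatter.

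Carriers change shape with each substrate, unlike channels. Unlike pumps that split ATP, they draw their energy from gradients of sodium, protons or the substrate itself. In the liver they take up bile acids, organic anions, amino acids and vitamins from the blood, and they return bile acids and organic cations to blood or bile. The family number groups carriers of related sequence, and most families share a substrate class: SLC30 and SLC39 move zinc, SLC25 serves the inner mitochondrial membrane, SLC35 the Golgi apparatus and endoplasmic reticulum, and SLC19 thiamine and folates.

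The 6 libraries held 7952645, 6651413 and 7483809 counted reads in the knockdown group and 10487862, 7713451 and 9137608 in the scrambled group. The normalized count used below is the number of reads of a transcript times the library's scale factor as the authors set it. The hairpin's target was checked first. ABL1 transcript NM_007313 had 14, 9 and 9 reads in the knockdown libraries, against 88, 64 and 76 in the scrambled libraries, while the sparser ABL1 transcript NM_005157 had 18, 17 and 24 reads, against 11, 6 and 11. Their log2 changes were -2.62 and 1.15 (limma adjusted p = 4.11e-06 and 0.0180), and the second call was lost without scrambled replicate 2 (adjusted p = 0.0508) or knockdown replicate 3 (adjusted p = 0.0738). Hepatocyte markers were abundant in both groups: the 6 of 9 listed markers with a row summed to 395265 to 440553 normalized counts in knockdown libraries and 461666 to 521005 in scrambled libraries, and 3 of the 5 tested fell. The most abundant of them, AFP, was not called (log2 change -0.10, limma adjusted p = 0.454). Normalized totals of whole libraries were also lower in the knockdown group (7517864 to 7779025, against 8573339 to 8744039), and the marker sums here are not scaled to them. All 4 fibroblast markers with a row, of 6 listed, were higher, summing to 12653 to 13908 in knockdown libraries and 7894 to 8801 in scrambled libraries. Markers of bile duct cells (4 of 5 with a row, 1 higher and 2 lower) summed to 5690 to 6159 in knockdown libraries, against 8250 to 9483. Those of immune cells (3 of 5, 1 higher and 2 lower) summed to 6544 to 7489, against 5714 to 6331, and those of endothelial cells (4 of 5, 1 higher and 3 lower) to 125 to 147, against 176 to 204. No marker with a row was at 0 in all libraries, and the part of these differences in the results below was not tested. All libraries came from the Huh7 line, so these sums describe marker RNA and do not count cells of those types. In bulk RNA, fewer cells with a marker and less RNA per cell cannot be told apart.

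Solute carrier RNA moved in both directions. Of the 188 rows, 153 (of 149 genes) had a mean of at least 10 normalized counts and entered the test, which was limma on log2(normalized count + 1) with adjustment over all 8600 transcripts tested. A transcript is called higher or lower where its adjusted p was below 0.05, and a log2 change is knockdown minus scrambled. Among the carriers 39 were called higher and 42 lower, 52.9% in all, beside 51.9% of all transcripts tested, of which 24.5% were higher and 27.4% lower. The 2 groups of libraries did not overlap for 92 carrier transcripts (60.1%), beside 58.9% of all. Changes of at least 2-fold were called for 12 carriers upward and 18 downward, where the shares over all transcripts were 7.92% and 9.02%. Each of these shares lay near its background, so the number of changed carriers was not itself a result. The median log2 change was -0.03 (interquartile range -0.55 to 0.50) over the carriers and 0.00 over all transcripts (-0.44 to 0.43), and the median absolute change was 0.54 over the carriers and 0.44 over all. With every library scaled to the same total in place of the authors' factors, the median of all transcripts moved to 0.18 and that of the carriers to 0.13, and the split became 51 higher and 34 lower. Calls of single transcripts were compared over 16 other settings: 61 of the 81 kept their call in each setting that tested them, 20 lost it in at least 1, and 0 reversed. All 20 were lost on leaving out some single library.

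**Figure D1:**
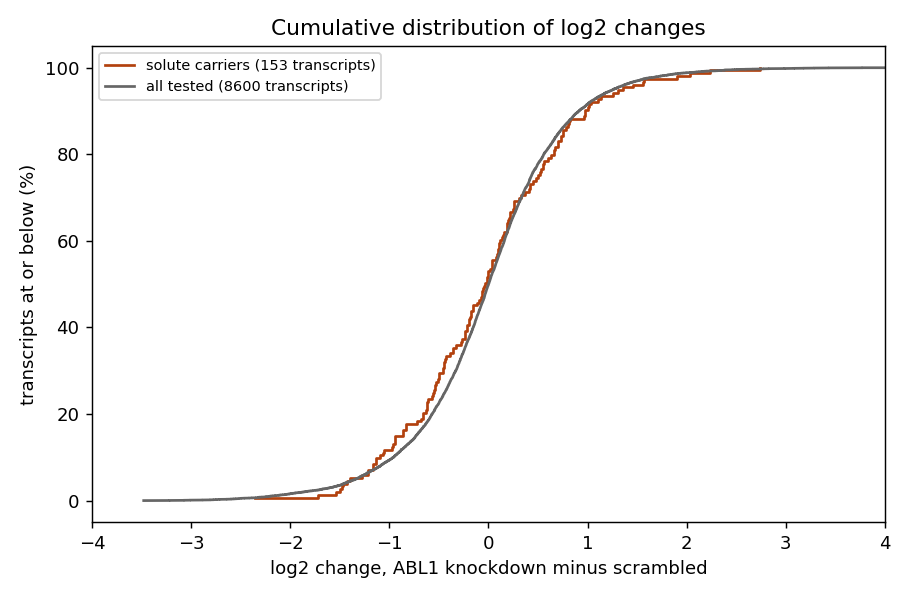
Cumulative share of transcripts (vertical axis, percent) at or below each log2 change, knockdown minus scrambled (horizontal axis), for the 153 solute carrier transcripts and for all 8600 tested. The curves cross near 0; the carriers' median is -0.03 and that of all transcripts 0.00.

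The substrate groups differed in their balance. Each group takes the carriers of whole SLC families by number, so it may hold members whose own substrate differs or is not known. Of 6 tested transcripts for nucleosides, vitamins and amines, 5 fell and 0 rose (median log2 change -0.64). Carriers of bile acids and organic ions had 7 falls and 2 rises among 15 (median -0.44). Metal carriers had 7 rises and 1 fall among 15 (median 0.02), and nucleotide sugar carriers 5 rises and 2 falls among 12 (median 0.24). Amino acid carriers were split, with 7 rises and 8 falls among 23 (median -0.16). The families grouped as sugar carriers were also split, with 3 of each among 13 (median -0.03). Mitochondrial carriers had 3 rises and 6 falls among 21 (median -0.01). Several of these medians moved with the scaling or with 1 library. With equal library totals the median was -0.28 for bile acid and organic ion carriers, 0.19 for metal carriers, 0.41 for nucleotide sugar carriers, 0.01 for amino acid carriers, 0.13 for sugar carriers and 0.17 for mitochondrial carriers. The bile acid group's median was -0.25 without knockdown replicate 2, and that of the metal carriers ran between -0.08 without knockdown replicate 1 and 0.30 without scrambled replicate 1. Without knockdown replicate 3 the median was -0.13 for mitochondrial and -0.16 for sugar carriers, and -0.10 for amino acid carriers. These counts are read beside the 24.5% higher and 27.4% lower over all transcripts, and no test of a group against the rest was made.

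**Figure D2:**
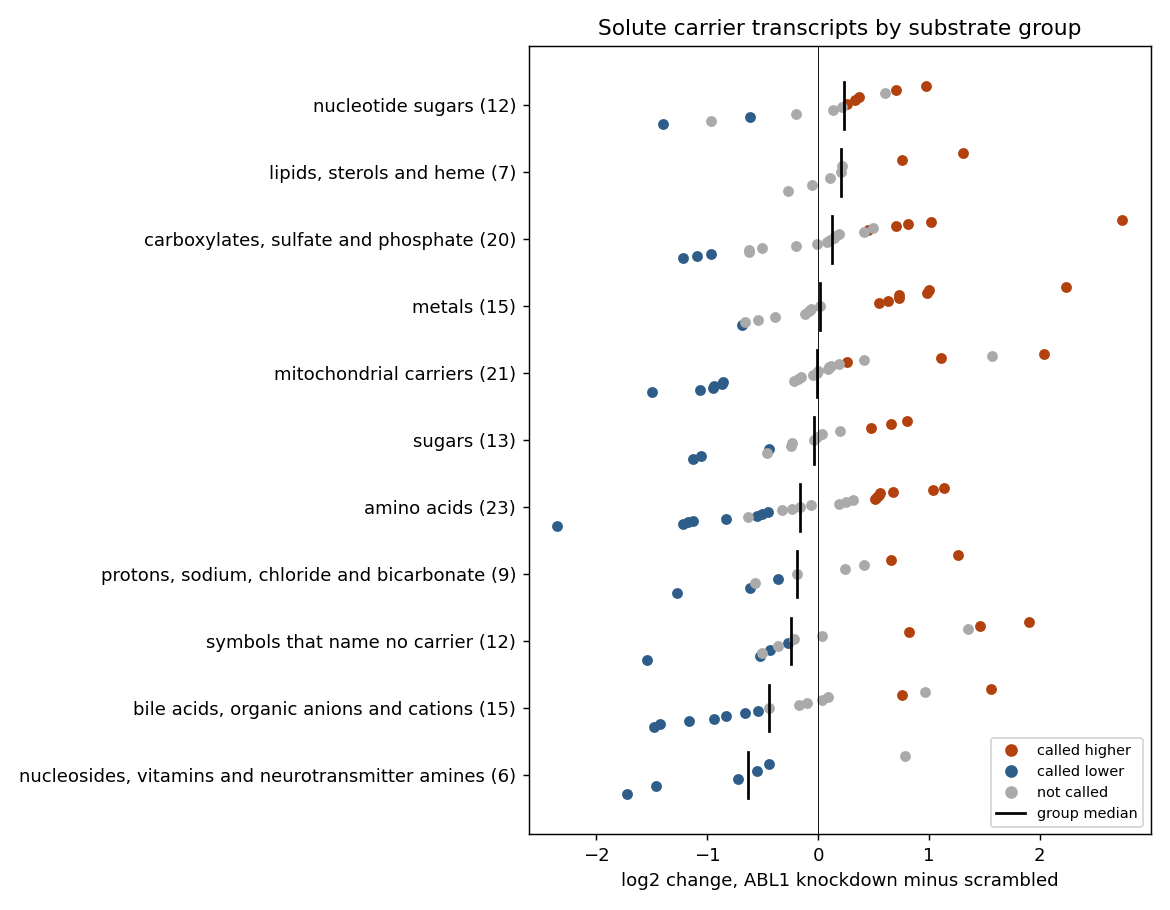
Log2 change of each tested solute carrier transcript (horizontal axis, knockdown minus scrambled), by substrate group with the number of transcripts in parentheses; colour gives the call and the black bar the group's median. Group medians run from -0.64 for nucleosides, vitamins and neurotransmitter amines to 0.24 for nucleotide sugars, and most groups hold calls in both directions.

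The zinc carriers are taken first. SLC30 proteins move zinc out of the cytosol, to the outside or into organelles, and SLC39 proteins move it in. Transcription of SLC30A1 is known to be switched on by zinc through the factor MTF1, which binds metal response elements in promoters. The core of such an element was searched on both strands as TGCACNC or TGCGCNC in a window of 250 bases before to 50 after each gene's start (RefSeq, GRCh38.p14, with the first listed start of each gene); matches on opposite strands may overlap. The 250 bases before the start of 2 zinc carriers that rose are printed because their windows hold it; these genes were chosen after their values were seen, and capitals mark the match.
SLC30A1 (chr1:211579162-211579411, minus strand): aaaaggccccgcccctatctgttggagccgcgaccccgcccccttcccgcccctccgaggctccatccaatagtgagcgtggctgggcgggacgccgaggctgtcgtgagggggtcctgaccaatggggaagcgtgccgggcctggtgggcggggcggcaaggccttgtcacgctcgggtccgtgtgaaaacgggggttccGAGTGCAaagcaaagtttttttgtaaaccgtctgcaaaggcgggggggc
SLC39A6 (chr18:36129341-36129590, minus strand): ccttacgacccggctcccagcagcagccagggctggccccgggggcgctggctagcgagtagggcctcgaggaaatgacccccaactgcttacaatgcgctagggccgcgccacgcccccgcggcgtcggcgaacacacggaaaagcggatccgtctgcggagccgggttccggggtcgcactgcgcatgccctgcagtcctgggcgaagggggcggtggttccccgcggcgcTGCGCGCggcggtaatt
The SLC30A1 window has its first match 49 bases before the start and another, not printed, 25 bases after it, while the match of SLC39A6 begins 17 bases before the start. These distances are from the first listed start. For SLC30A1 that start lies upstream of the start of the tested transcript's GENCODE 29 model, at 211578742. Of the 10 SLC30 and SLC39 genes with a window, 5 held a match (50%), beside 29.3% of 27305 windows of all genes. Besides the printed genes these were SLC30A4, which rose, SLC39A3, not called, and SLC30A3, not tested. SLC30A5 and SLC39A1, which rose, held none, nor did SLC30A9, which fell, or SLC30A7 and SLC39A8, not tested. The share was 48.4% of 31 windows of carriers called higher, 45.5% of 33 called lower and 31.5% of 54 not called; these shares were not tested against each other. The windows of all genes include genes not tested here. A match is a description of the letters only.

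All 4 tested SLC30 transcripts changed, 3 upward and 1 downward. SLC30A1 (NM_021194; chromosome 1, 211571568 to 211578742, minus strand; here and below from GENCODE 29 on GRCh38), which exports zinc across the plasma membrane, had 354, 322 and 475 normalized counts in the knockdown libraries, against 210.1, 160.3 and 208 in the scrambled libraries. Each knockdown value lay above each scrambled one, and the log2 change was 0.98 (SE 0.16, limma adjusted p = 0.000217). SLC30A4, which loads zinc into endosomes and vesicles, was sparse, with 36.2, 45.2 and 44.4 normalized counts in knockdown libraries and 11.7, 7.85 and 5.63 in scrambled libraries. Its change was the largest of the family, 2.24 on the log2 scale (SE 0.34, limma adjusted p = 0.000132). SLC30A5, which supplies zinc to enzymes of the secretory pathway, was the most abundant of the family, at 1252, 1492 and 1263 normalized counts against 693, 846 and 880.1 (log2 change 0.73, SE 0.11, limma adjusted p = 9.56e-05). The exception was SLC30A9, a zinc carrier of mitochondria, at 573, 530.1 and 519.96 normalized counts in knockdown libraries and 865, 889.9 and 849 in scrambled libraries, with no overlap. This fall measured -0.68 on the log2 scale (SE 0.08, limma adjusted p = 2.37e-05).

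Among the zinc importers, SLC39A6 (NM_012319; chromosome 18, 36108532 to 36129318, minus strand) had 595, 563 and 539.6 normalized counts in knockdown libraries, against 270.1, 399 and 368 in scrambled libraries (log2 change 0.73, SE 0.13, limma adjusted p = 0.000576). Its groups were apart, and an importer therefore rose beside 3 SLC30 carriers. SLC39A1, another importer, had 26.4, 16.9 and 31.98 against 15.01, 11.2 and 9.38 normalized counts, a log2 change of 1.0 (SE 0.36, limma adjusted p = 0.0321). This call was lost without knockdown replicate 1 (adjusted p = 0.0883), knockdown replicate 3 (0.129), scrambled replicate 2 (0.0631) or scrambled replicate 3 (0.0981). The tested row of SLC39A14, the carrier of zinc and of iron that is not bound to transferrin in hepatocytes, held few reads. Its gene has 14 RefSeq transcripts, among which the table may divide reads. This row had 8.80, 22.6 and 9.29 normalized counts in knockdown libraries and 17.5, 23.5 and 19.7 in scrambled libraries. It was not called (limma adjusted p = 0.185), but without knockdown replicate 2 its log2 change was -1.07 (limma adjusted p = 0.0390). Both rows of SLC39A3 had negative log2 changes, -0.39 and -0.08, that missed the threshold (limma adjusted p = 0.0697 and 0.775). Of the fits that left out 1 library, the first row, NM_144564, was called lower without knockdown replicate 1 (adjusted p = 0.0471), knockdown replicate 3 (0.0353) or scrambled replicate 2 (0.0176).

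Of the copper carriers, SLC31A1, the high-affinity copper importer, was the more abundant, at 3273, 3332 and 3116 normalized counts in knockdown libraries and 3385, 3597 and 3532 in scrambled libraries, and was not called (log2 change -0.11, SE 0.07, limma adjusted p = 0.182). SLC31A2, its relative on late endosomes and lysosomes, had 148, 121 and 104 against 86.7, 72.8 and 77.9 normalized counts and rose by 0.63 (SE 0.17, limma adjusted p = 0.00856). SLC41A2, a magnesium carrier, had 319.9, 383 and 255 normalized counts in knockdown libraries and 197, 197 and 255 in scrambled libraries. It was called higher (log2 change 0.55, SE 0.16, limma adjusted p = 0.0109) although the value of knockdown replicate 3 lay just below that of scrambled replicate 3, and the call was lost without knockdown replicate 2 (adjusted p = 0.0508). SLC41A1, SLC11A1 and SLC11A2, which carry magnesium or iron, had log2 changes of 0.02, -0.06 and -0.54, none past the threshold. Of the fits that left out 1 library, the 1 fall among metal carriers was 2 without knockdown replicate 1, 2 or 3 or scrambled replicate 2.

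**Figure D3:**
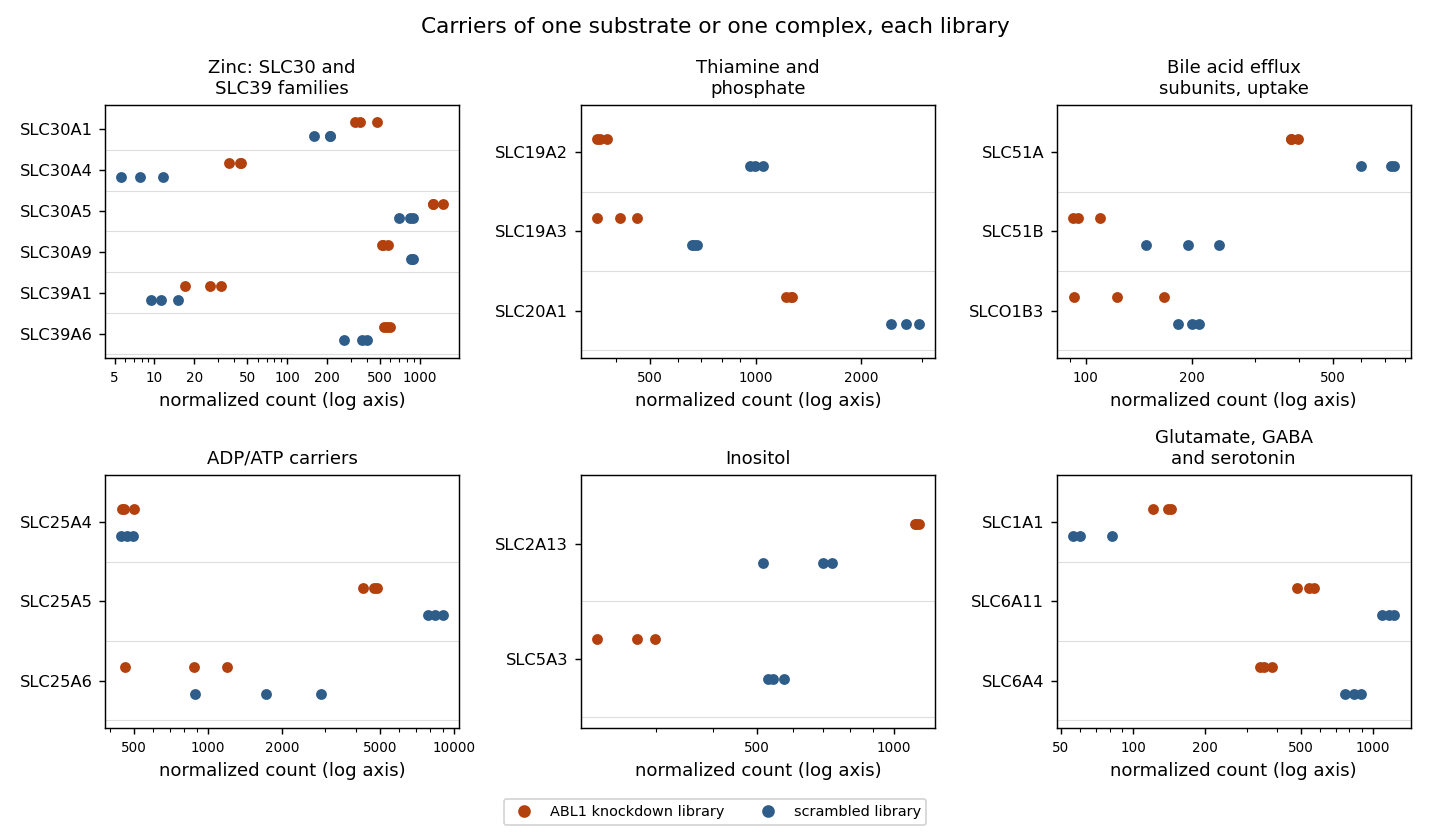
Normalized counts of each library (horizontal log axes) for carriers of 1 substrate class or complex; orange points are the 3 ABL1 knockdown libraries and blue points the 3 scrambled libraries. SLC30A1, SLC30A4, SLC30A5, SLC39A1, SLC39A6, SLC2A13 and SLC1A1 lie wholly to the right in the knockdown libraries and SLC30A9, SLC19A2, SLC19A3, SLC20A1, SLC51A, SLC51B, SLCO1B3, SLC25A5, SLC5A3, SLC6A11 and SLC6A4 wholly to the left, while SLC25A4 and SLC25A6 overlap.

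Both thiamine carriers fell. SLC19A2 (NM_006996; chromosome 1, 169463931 to 169485944, minus strand), the thiamine carrier found in most tissues, had 352, 359 and 377 normalized counts in knockdown libraries, against 967, 1048 and 994 in scrambled libraries. The groups were far apart for their spread, and its log2 change of -1.46 (SE 0.09, limma adjusted p = 5.14e-08) had the smallest p of all carriers. SLC19A3, the second thiamine carrier, stood at 409, 458 and 353 normalized counts in knockdown libraries and 679, 658 and 666 in scrambled libraries (log2 change -0.72, SE 0.10, limma adjusted p = 9.78e-05). Summed, the 2 rows came to 769 ± 44.5 normalized counts in knockdown libraries and 1670 ± 31.4 in scrambled libraries (SD, n = 3 each), a ratio of 0.460. SLC28A2, a sodium-coupled carrier of purine nucleosides, was sparse, with 15.7, 15.8 and 5.16 against 48.4, 31.4 and 37.5 normalized counts (log2 change -1.72, SE 0.40, limma adjusted p = 0.00336). SLC18B1, a vesicular polyamine carrier, had 1209, 1241 and 1024 normalized counts in knockdown libraries and 1604, 1555 and 1553 in scrambled libraries (log2 change -0.44, SE 0.09, limma adjusted p = 0.000891). The vesicular monoamine carrier SLC18A2 was also lower, by a log2 change of -0.55 (limma adjusted p = 0.0195), and lost its call without knockdown replicate 1 (adjusted p = 0.0804) or scrambled replicate 2 (0.0853). A non-coding transcript of SLC52A2, whose protein carries riboflavin, had 11.7, 47.5 and 69.1 normalized counts in knockdown libraries and 22.5, 12.3 and 26.3 in scrambled libraries, with overlap, and was not called (limma adjusted p = 0.235). It was called higher without knockdown replicate 1, the 1 rise that this group of 6 showed in any setting that left out a library.

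The bile acid and organic ion carriers fell more often than they rose. SLC51A and SLC51B encode the 2 subunits of the basolateral exporter that returns bile acids to the blood. SLC51A (NM_152672; chromosome 3, 196216504 to 196233430, plus strand) had 381, 381 and 397 normalized counts in knockdown libraries, against 745, 726 and 598 in scrambled libraries, a log2 change of -0.83 (SE 0.10, limma adjusted p = 2.59e-05). SLC51B (NM_178859; chromosome 15, 65045370 to 65053396, plus strand) had 94.9, 109.6 and 91.8 against 238, 194 and 148 normalized counts, a log2 change of -0.94 (SE 0.18, limma adjusted p = 0.000709). Both subunits were lower in every knockdown library, and their sum was 485 ± 8.34 normalized counts in knockdown libraries and 883 ± 122 in scrambled libraries (SD, n = 3 each). SLCO1B3, an uptake carrier of the hepatocyte for bile acids and drugs, had 122, 166 and 92.8 normalized counts in knockdown libraries and 182, 199.5 and 208 in scrambled libraries. It fell without overlap (log2 change -0.66, SE 0.19, limma adjusted p = 0.00998). In the opposite direction, SLCO4C1, an organic anion carrier best known from the kidney, had 1309, 1359.7 and 1253 normalized counts in knockdown libraries and 785, 719.5 and 818 in scrambled libraries (log2 change 0.76, SE 0.08, limma adjusted p = 8.12e-06). SLC10A5, a relative of the bile acid uptake carriers, rose on few reads, with 26.4, 27.1 and 22.7 against 11.7, 8.97 and 4.69 normalized counts (log2 change 1.56, SE 0.38, limma adjusted p = 0.00462).

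Both organic cation carriers described here fell. SLC22A3 (NM_021977; chromosome 6, 160348268 to 160452581, plus strand), an uptake carrier of monoamines and other organic cations, had 258, 245 and 278 normalized counts in knockdown libraries, against 616, 570.5 and 571 in scrambled libraries (log2 change -1.17, SE 0.10, limma adjusted p = 9.47e-07). SLC47A1, which extrudes organic cations into bile in exchange for protons, had 651, 601 and 606 against 908, 900.00 and 899 normalized counts (log2 change -0.54, SE 0.08, limma adjusted p = 0.000119). The uptake and the efflux carrier thus moved the same way. SLC22A31, whose substrate is not known, fell further, with 257, 189 and 226 normalized counts in knockdown libraries and 596, 548 and 659.6 in scrambled libraries (log2 change -1.43, SE 0.13, limma adjusted p = 1.43e-06). SLC22A9, a liver organic anion carrier and the most abundant of its family, overlapped at 2144, 2014 and 1930.2 against 1763, 2062 and 1910.3 normalized counts and was not called (log2 change 0.09, SE 0.08, limma adjusted p = 0.384); with equal library totals it was called higher, by 0.26 (adjusted p = 0.0155). SLCO2A1, a prostaglandin carrier, showed a log2 change of 0.04 (SE 0.10, limma adjusted p = 0.794).

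Amino acid and neurotransmitter carriers went both ways. SLC38A5 (NM_033518; chromosome X, 48458537 to 48470256, minus strand), which carries glutamine, asparagine and histidine with sodium against protons, had 31.3, 31.6 and 20.6 normalized counts in knockdown libraries, against 153, 151 and 129 in scrambled libraries. This was the largest fall among the carriers, a log2 change of -2.35 (SE 0.21, limma adjusted p = 1.70e-06). SLC38A3, the main glutamine carrier of this class in liver, had 3409.9, 3012 and 2840.2 normalized counts in knockdown libraries and 3447, 3434 and 3439.6 in scrambled libraries and was not called (log2 change -0.16, SE 0.08, limma adjusted p = 0.103). SLC1A5, the glutamine exchanger of many tumour cells, overlapped at 1584, 1454 and 1785 against 1555, 1196 and 1491 normalized counts (log2 change 0.19, SE 0.11, limma adjusted p = 0.160). That value became a called rise with equal library totals (0.36, adjusted p = 0.0107) and with quantile normalization (0.29, adjusted p = 0.0275).

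Carriers best known from neurons were measurable in these liver-derived cells. SLC6A4 (NM_001045; chromosome 17, 30194321 to 30235968, minus strand), the serotonin carrier, had 351, 379 and 339 normalized counts in knockdown libraries, against 896, 767 and 834 in scrambled libraries (log2 change -1.22, SE 0.10, limma adjusted p = 5.28e-07). SLC6A11, a GABA carrier, had 2 tested transcripts that fell alike: NM_014229 had 543, 485 and 567 against 1174, 1232 and 1089 normalized counts (log2 change -1.13, SE 0.09, limma adjusted p = 6.60e-07). The sparser NM_001317406 had 23.5, 19.2 and 13.4 against 34.2, 48.2 and 45.97 normalized counts (log2 change -1.17, SE 0.29, limma adjusted p = 0.00491). Neither row's groups overlapped. SLC1A1, the sodium-coupled carrier of glutamate and cysteine, was higher instead, with 121, 144 and 140.3 normalized counts in knockdown libraries and 60.03, 56.04 and 81.6 in scrambled libraries (log2 change 1.04, SE 0.18, limma adjusted p = 0.000425).

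Among the other amino acid carriers, SLC36A1, which releases small amino acids from lysosomes with protons, had 445, 452 and 486 normalized counts in knockdown libraries and 280.1, 312 and 276 in scrambled libraries (log2 change 0.67, SE 0.10, limma adjusted p = 0.000126). SLC6A19, the sodium-coupled carrier of neutral amino acids in gut and kidney, rose too, with 1489, 1379 and 1593 against 1024, 1056 and 951 normalized counts (log2 change 0.56, SE 0.08, limma adjusted p = 0.000121). SLC7A10, an exchanger of small neutral amino acids, was lower, at 985, 805 and 1029.6 against 1366, 1262 and 1355 normalized counts (log2 change -0.51, SE 0.10, limma adjusted p = 0.000849). The 2 rows of SLC38A10, a widely expressed relative, differed: NM_001037984 rose (log2 change 0.53, SE 0.10, limma adjusted p = 0.000584) at over 1000 normalized counts in each library, while NM_138570, at under 100, was not called (-0.33, limma adjusted p = 0.242). The next 3 calls were each lost without some single library. SLC43A1, a carrier of branched-chain amino acids, was called higher (0.55, limma adjusted p = 0.0389) with overlapping groups, and the call was lost without knockdown replicate 2 (adjusted p = 0.117) or 3 (0.153) or scrambled replicate 1 (0.0667) or 2 (0.132). SLC3A1, the heavy subunit of the cystine carrier, was called lower (-0.55, limma adjusted p = 0.0216), which was lost without knockdown replicate 3 (0.0739) or scrambled replicate 3 (0.103). The peptide carrier SLC15A1 was called lower (-0.45, limma adjusted p = 0.0301), and this was lost without knockdown replicate 1 (0.0577) or 3 (0.0935) or scrambled replicate 2 (0.102) or 3 (0.110). The 7 rises of the amino acid group were 4 without knockdown replicate 2, knockdown replicate 3 or scrambled replicate 2.

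**Figure D4:**
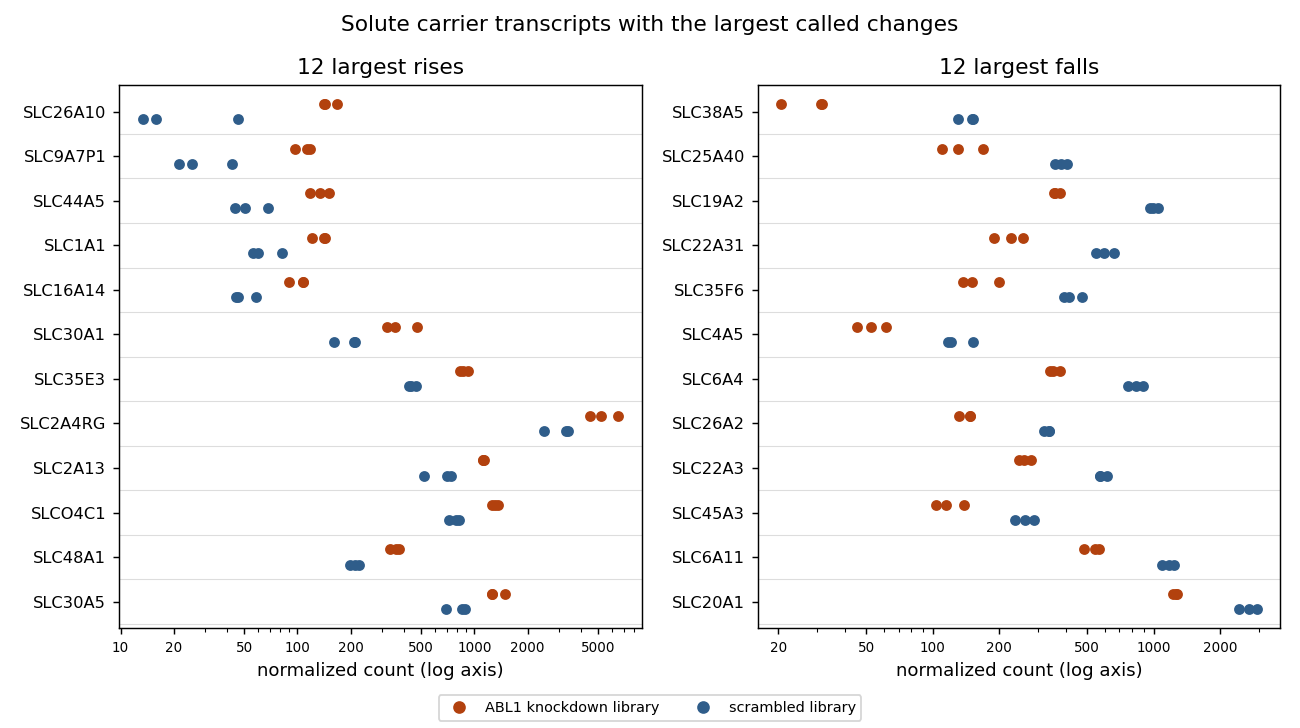
Normalized counts of each library (log axes) for the 12 largest called rises and 12 largest called falls by log2 change among solute carrier transcripts whose groups did not overlap and whose mean was at least 50; orange points are the 3 ABL1 knockdown libraries and blue points the 3 scrambled libraries. SLC26A10 leads the rises, with 140 to 168 normalized counts in knockdown libraries, and SLC38A5 the falls, with 20.6 to 31.6.

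The 2 inositol carriers moved in opposite directions. SLC2A13 (NM_052885; chromosome 12, 39755021 to 40105859, minus strand), which takes up myo-inositol with protons, had 1120.0, 1111 and 1133 normalized counts in knockdown libraries, against 699.5, 517 and 733 in scrambled libraries (log2 change 0.80, SE 0.12, limma adjusted p = 0.000102). SLC5A3 (NM_006933; chromosome 21, 34073570 to 34106262, plus strand), which takes it up with sodium, had 223, 299.5 and 272 against 529, 544 and 574 normalized counts (log2 change -1.06, SE 0.12, limma adjusted p = 1.00e-05). In both, the knockdown and scrambled libraries were fully apart. Of the glucose carriers, SLC2A1, the basal carrier of most proliferating cells, was not called, with 1919, 1643 and 1921 normalized counts in knockdown libraries and 1814, 1895 and 1647 in scrambled libraries (log2 change 0.03, SE 0.09, limma adjusted p = 0.780); it was called higher with equal library totals, by 0.21 (adjusted p = 0.0473). SLC2A3, a high-affinity glucose carrier, was sparser and not called (-0.24, limma adjusted p = 0.389). SLC2A4, the insulin-responsive carrier of muscle and fat, fell (-0.44, limma adjusted p = 0.00512), and SLC2A10 rose (0.66, limma adjusted p = 0.000217). SLC5A12, counted with the sugar carriers by its family number, also rose (0.48, limma adjusted p = 0.00512). SLC45A3, a sugar carrier homologue known from the prostate, had 115, 104 and 138 against 288, 235 and 261 normalized counts (log2 change -1.13, SE 0.14, limma adjusted p = 3.30e-05). Its relative SLC45A4 had 2 tested rows, neither called (-0.24 and -0.46). The tested row of SLC37A4, the glucose 6-phosphate carrier of the endoplasmic reticulum, held few reads, with 13.7, 16.9 and 24.8 normalized counts in knockdown libraries and 18.3, 19.1 and 17.8 in scrambled libraries.

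Of 20 tested carriers of carboxylates, sulfate and phosphate, 5 rose and 3 fell (median log2 change 0.12). SLC20A1 (NM_005415; chromosome 2, 112645857 to 112663827, plus strand), a sodium-phosphate carrier of most cells, had 1266, 1274 and 1225 normalized counts in knockdown libraries, against 2434, 2929 and 2690.0 in scrambled libraries (log2 change -1.09, SE 0.08, limma adjusted p = 3.53e-07). It was the most abundant of its substrate group that changed. Its relative SLC20A2 was sparse and was called higher, with 40.1, 38.4 and 51.6 against 28.4, 17.9 and 27.2 normalized counts (log2 change 0.81, SE 0.27, limma adjusted p = 0.0235), a call lost without knockdown replicate 3 (adjusted p = 0.0910) or scrambled replicate 2 (0.0835). SLC26A2 (NM_000112; chromosome 5, 149960737 to 149987405, plus strand), a sulfate carrier that cartilage needs, had 148, 131 and 148 against 338, 337 and 319 normalized counts (log2 change -1.22, SE 0.12, limma adjusted p = 2.62e-06). The promoters of SLC20A1 and SLC38A5, the phosphate and glutamine carriers that fell, are printed because their windows hold the E-box letters CACGTG, which transcription factors such as MYC and TFEB are known to bind; both were chosen after their values were seen, and capitals mark the match.
SLC20A1 (chr2:112645689-112645938, plus strand): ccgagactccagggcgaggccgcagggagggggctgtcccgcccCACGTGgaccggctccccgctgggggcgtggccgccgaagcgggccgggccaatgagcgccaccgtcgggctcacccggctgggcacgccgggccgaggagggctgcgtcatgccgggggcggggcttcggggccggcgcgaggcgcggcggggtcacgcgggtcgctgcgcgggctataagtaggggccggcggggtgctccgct
SLC38A5 (chrX:48470261-48470510, minus strand): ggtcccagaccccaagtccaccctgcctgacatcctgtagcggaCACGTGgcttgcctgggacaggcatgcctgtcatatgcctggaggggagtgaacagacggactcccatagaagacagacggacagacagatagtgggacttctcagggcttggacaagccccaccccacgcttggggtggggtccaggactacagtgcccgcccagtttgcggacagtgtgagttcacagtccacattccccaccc
In each the match begins 206 bases before the first listed start. For SLC20A1 that start lies downstream of the start of the tested transcript's model, at 112645857. CACGTG, which reads the same on both strands, was present in 7.43% of the 27305 windows of all genes, in 22.6% of the 31 windows of carriers called higher, 18.2% of the 33 called lower and 7.41% of the 54 not called. Both shares of changed carriers rest on few windows and were not tested against each other. The windows of all genes include genes not tested here, and the share over tested transcripts was not computed. In both motif searches the carrier windows include symbols that name no carrier, such as SLC2A4RG. SLC38A10 counts both as called higher and as not called, through its 2 rows.

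In the same substrate group by family number, SLC26A10 showed the largest rise of all member rows tested. It had 168, 142 and 140.3 normalized counts in knockdown libraries and 13.3, 45.95 and 15.9 in scrambled libraries (log2 change 2.74, SE 0.36, limma adjusted p = 3.91e-05). Scrambled replicate 2 stood above the other 2 scrambled libraries but below every knockdown library. The identifier of SLC26A10 matched no gene in the RefSeq reference used here, so whether this row names a working carrier was not established. SLC16A14, a monocarboxylate carrier homologue, had 108, 89.3 and 107 against 58.4, 44.8 and 45.97 normalized counts (log2 change 1.02, SE 0.19, limma adjusted p = 0.000641). It was the single called row of the 8 tested in the SLC16 family (12.5%, beside 51.9% of all transcripts). SLC16A12 lay near the threshold (limma adjusted p = 0.0528) and gained a call with quantile normalization or without knockdown replicate 1. SLC16A9, SLC16A10, SLC16A11 and SLC16A13 each gained a call in at least 1 other setting. SLC17A1, a carrier of urate and phosphate, and SLC17A5, the lysosomal exporter of sialic acid, both rose, by 0.70 (limma adjusted p = 0.000539) and 0.45 (limma adjusted p = 0.000559). SLC17A5 was the more abundant, with 1639, 1744 and 1498 normalized counts in knockdown libraries and 1129.7, 1212 and 1231 in scrambled libraries. All 4 rows of SLC16A3, the lactate exporter, lay under the minimum mean of 10.

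Mitochondrial carriers held the most abundant carrier that fell. SLC25A5 (NM_001152; chromosome X, 119468400 to 119471319, plus strand), an exchanger of ADP and ATP across the inner membrane, had 4864, 4737 and 4283 normalized counts in knockdown libraries, against 7885, 9043 and 8373 in scrambled libraries (log2 change -0.87, SE 0.08, limma adjusted p = 1.61e-06). SLC25A4, the isoform of heart and muscle, was not called, at 499.8, 448 and 457 against 496, 467 and 445 normalized counts (log2 change -0.00, SE 0.09, limma adjusted p = 0.975). SLC25A6, the third isoform, overlapped, at 881, 1194 and 460.1 against 1717, 888 and 2892. It was called lower (-1.06, SE 0.37, limma adjusted p = 0.0283), but not without knockdown replicate 3 (adjusted p = 0.106), scrambled replicate 1 (0.0605) or scrambled replicate 3 (0.147), nor with equal library totals (0.0611). The 3 isoforms are near copies of each other and have processed pseudogenes, and the sources used here do not say how reads that match several of them were assigned.

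SLC25A23, a calcium-regulated exchanger of ATP-magnesium and phosphate, had 2157, 1943 and 2089 normalized counts in knockdown libraries and 3770.1, 3678 and 3776 in scrambled libraries (log2 change -0.86, SE 0.07, limma adjusted p = 7.44e-07). SLC25A40 (NM_018843; chromosome 7, 87833568 to 87876349, minus strand), linked to the import of glutathione into mitochondria, showed the largest fall of the family, with 168, 129.98 and 110.4 against 356, 379.9 and 405 normalized counts (log2 change -1.49, SE 0.15, limma adjusted p = 4.25e-06). SLC25A51, the mitochondrial NAD+ carrier, held fewer reads and fell (-0.94, limma adjusted p = 0.00505). SLC25A45, also sparse, rose, with 13.7, 19.2 and 26.8 normalized counts in knockdown libraries and 3.33, 2.24 and 7.51 in scrambled libraries (log2 change 2.04, SE 0.49, limma adjusted p = 0.00374). SLC25A15, the ornithine carrier of the urea cycle, showed no called change, with 726, 831 and 830.5 normalized counts in knockdown libraries and 771, 824 and 798 in scrambled libraries (log2 change -0.01, SE 0.09, limma adjusted p = 0.959). The 3 rises of the family were 5 with equal library totals and 1 without knockdown replicate 3, and its 6 falls were 5 in both of these settings.

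Members of the SLC35 family, grouped here as nucleotide sugar carriers, rose more often than they fell. The group follows the family number, and not every member is established as a carrier of nucleotide sugars. SLC35E3 (NM_018656; chromosome 12, 68746106 to 68781467, plus strand), whose substrate is not established, had 859, 827 and 923 normalized counts in knockdown libraries, against 436, 465 and 428 in scrambled libraries (log2 change 0.97, SE 0.09, limma adjusted p = 1.66e-06). SLC35D1, which brings UDP-sugars into the endoplasmic reticulum, had 1887, 2015 and 1849.8 against 1477, 1504 and 1474 normalized counts (log2 change 0.37, SE 0.07, limma adjusted p = 0.000927). Its groups were close in size but did not overlap. SLC35B4, a Golgi carrier of UDP-xylose and UDP-N-acetylglucosamine, fell, with 281, 326 and 330.1 against 468, 471 and 494 normalized counts (log2 change -0.62, SE 0.10, limma adjusted p = 0.000279). SLC35F6, a lysosomal member, fell further, with 151, 137 and 199 against 474, 412 and 391 normalized counts (log2 change -1.40, SE 0.15, limma adjusted p = 5.61e-06). SLC35A4 rose by 0.33 (limma adjusted p = 0.00357). SLC35E2A rose by 0.71 (limma adjusted p = 0.000866); it has a near-identical copy, SLC35E2B, and reads of the 2 may not be told apart.

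Of 7 tested carriers of lipids, sterols and heme, 2 rose and 0 fell. SLC48A1, which moves heme out of lysosomes, had 334, 373 and 362 normalized counts in knockdown libraries and 213, 222 and 198 in scrambled libraries (log2 change 0.75, SE 0.11, limma adjusted p = 9.39e-05). SLC44A5, of the choline carrier family, had 118, 150.3 and 134 against 44.2, 50.4 and 68.5 normalized counts (log2 change 1.31, SE 0.20, limma adjusted p = 0.000130). For both, all knockdown libraries were above all scrambled ones. The 3 fatty acid transport proteins tested, SLC27A1, SLC27A4 and SLC27A5, overlapped between groups, with log2 changes of -0.06, 0.21 and 0.21 (limma adjusted p from 0.0760 to 0.786). SLC27A4 was called higher with equal library totals, with quantile normalization, and without knockdown replicate 2 or scrambled replicate 1. In each of these settings the group had 3 rises in place of 2.

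Of 9 tested carriers of protons, sodium, chloride and bicarbonate, 2 rose and 3 fell. SLC4A5, a sodium-bicarbonate cotransporter, had 61.6, 45.2 and 52.6 normalized counts in knockdown libraries and 117, 152 and 121 in scrambled libraries (log2 change -1.28, SE 0.19, limma adjusted p = 0.000105). SLC12A9, a relative of the cation-chloride cotransporters, had 221, 198 and 176 against 323, 269 and 318 normalized counts (log2 change -0.61, SE 0.13, limma adjusted p = 0.00151). SLC24A1, an exchanger of sodium for calcium and potassium, rose (0.66, limma adjusted p = 0.00737). Without knockdown replicate 3 or without scrambled replicate 2 the group had 1 rise, and with equal library totals there were 4 rises and 2 falls.

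Summed over all their rows, solute carriers had 77525 ± 1840 normalized counts in knockdown libraries and 85722 ± 1423 in scrambled libraries (SD, n = 3 each), a ratio of 0.904. As a share of each library's total that was 1.008, 1.003 and 1.02% in knockdown libraries and 0.987, 0.973 and 1.01% in scrambled libraries, so the direction of the sum depended on the scaling. Mitochondrial carriers summed to 14568 ± 580 in knockdown libraries and 20980 ± 868 in scrambled libraries, a ratio of 0.694, and carriers of nucleosides, vitamins and amines to 2070 ± 148 and 3429 ± 32.4, a ratio of 0.604. The SLC35 family, grouped as nucleotide sugar carriers, summed to 8321 ± 263 in knockdown libraries and 6985 ± 67.4 in scrambled libraries, a ratio of 1.19. Lipid and heme carriers summed to 1808 ± 33.7 and 1488 ± 29, a ratio of 1.21. These 4 groups did not overlap on either scale. The mitochondrial sum rested largely on a few abundant rows. SLC25A5 averaged 4628 normalized counts in knockdown and 8433 in scrambled libraries, and SLC25A23 averaged 2063 and 3742. Of the 21 tested mitochondrial rows 12 were not called, and their median log2 change was -0.01. Bile acid and organic ion carriers, with a ratio of 0.873, and carriers of carboxylates, sulfate and phosphate, with 0.865, were lower on the authors' scale, yet their shares of the library totals overlapped between groups. The exact two-sided permutation test gave p = 0.1 for each of these sums, the smallest that 3 against 3 libraries allow.

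**Figure D5:**
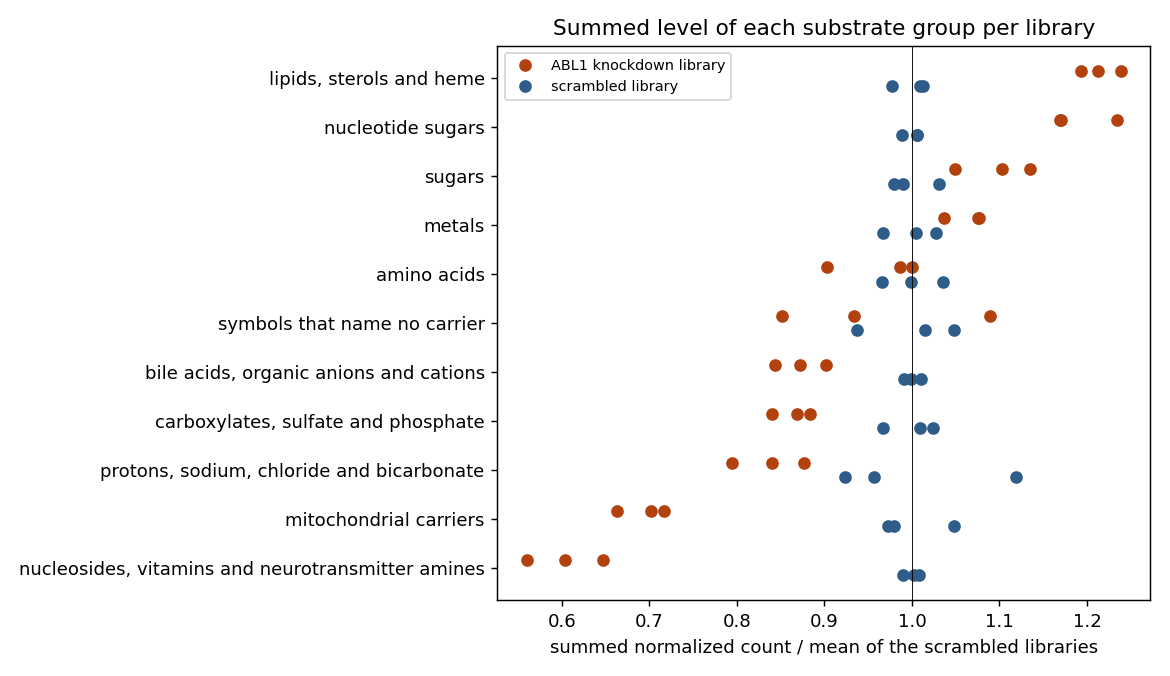
Summed normalized count of each substrate group per library, divided by the mean of the scrambled libraries (horizontal axis); orange points are the 3 ABL1 knockdown libraries and blue points the 3 scrambled libraries. Mitochondrial carriers (ratio of means 0.694) and carriers of nucleosides, vitamins and amines (0.604) stand furthest below 1, and nucleotide sugar (1.19) and lipid carriers (1.21) furthest above. Abundant rows weigh most in each sum.

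By mean over the 6 libraries, SLC9A3R1 held 9.53% of the summed normalized count, SLC25A5 8.001% and SLC2A4RG 5.16%, and the 12 most abundant rows held 49.5%. Per kilobase of the transcript's GENCODE 29 model, SLC25A5 was highest, at 5126 normalized counts per kilobase, before SLC9A3R1 with 3949, SLC2A4RG with 2434 and SLC38A3 with 1096. The first and the third of the rows by summed share name no carrier.

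Such symbols made up 12 tested rows: 3 rose and 4 fell. SLC9A3R1 (NM_004252; chromosome 17, 74748652 to 74769353, plus strand), a scaffold that ties membrane proteins to the actin skeleton, had 6381, 5863 and 6897 normalized counts in knockdown libraries, against 9616, 8926 and 8977 in scrambled libraries (log2 change -0.53, SE 0.08, limma adjusted p = 9.84e-05). SLC2A4RG, a DNA-binding regulator of the SLC2A4 gene, had 5157, 4513 and 6482 against 3272, 2466 and 3392 normalized counts (log2 change 0.82, SE 0.14, limma adjusted p = 0.000265). SLC2A4 itself fell, as given above. The pseudogene SLC9A7P1 rose, with 113, 97.2 and 118 normalized counts in knockdown libraries and 42.5, 21.3 and 25.3 in scrambled libraries (log2 change 1.90, SE 0.25, limma adjusted p = 4.60e-05). The antisense row SLC9A3-AS1 rose as well (1.46, limma adjusted p = 0.00307). Pseudogene reads may belong to the parent gene, and since the sources used here do not state the strand setting, reads of an antisense gene and its partner cannot be told apart. The 4 falls were 2 with equal library totals, and 2 without knockdown replicate 1, knockdown replicate 2, scrambled replicate 2 or scrambled replicate 3.

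The 35 rows under the minimum mean of 10 were left out of the test and had between 0 and 19.1 normalized counts in any library. They left 24 symbols without a tested row, among them SLC16A3, SLC38A2, which carries small neutral amino acids, and SLC3A2, the heavy subunit of several amino acid exchangers, whose row is a non-coding transcript. Without the minimum, 3 of these rows were called higher and 3 lower. Of the 35 rows, 34 came from genes with several RefSeq transcripts, whose reads the table may divide. The same holds for sparse tested rows of such genes, among them SLC39A14, SLC20A2 and SLC37A4. Few reads in 1 row need not mean few reads of the gene. Among carriers tested, genes with 1 RefSeq transcript had 9 rises and 17 falls of 39 rows (66.7% called). Those with several had 28 rises and 23 falls of 110 rows (46.4%), beside 51.9% called over all transcripts. These 2 sets also differed in level, with median means of 294 and 90.7 normalized counts. The 2 shares were not computed over all transcripts, so number of transcripts and level cannot be told apart here. Of 26 symbols listed for their role in liver or tumour cells, 14 had a row, and the other 12, such as SLC10A1, SLCO1B1 and SLC2A2, were not analysed here.

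Genes that work with solute carriers were counted from a list of 41, of which 17 rows were tested, with 5 higher and 3 lower (47.1% called, beside 51.9% of all transcripts; median log2 change -0.06). WNK4 and STK39 are kinases of the cascade that regulates sodium-chloride and potassium-chloride cotransporters. WNK4 had 558, 524 and 557 normalized counts in knockdown libraries and 1139.7, 1246 and 1214 in scrambled libraries (log2 change -1.13, SE 0.08, limma adjusted p = 2.60e-07). STK39 had 519, 460.02 and 554 against 249, 233 and 232 normalized counts (log2 change 1.10, SE 0.11, limma adjusted p = 3.08e-06), so the 2 kinases moved in opposite directions. MTF1, the zinc-sensing transcription factor named above, had 506, 537 and 549 normalized counts in knockdown libraries and 252, 279 and 254 in scrambled libraries (log2 change 1.02, SE 0.10, limma adjusted p = 3.08e-06). ARL6IP5, a membrane protein known to bind and restrain SLC1A1, had 744, 781 and 705 against 356, 459.5 and 411 normalized counts (log2 change 0.87, SE 0.11, limma adjusted p = 2.23e-05). The partner thus rose together with its carrier.

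Carriers that belong to SLC families but keep older names, 34 tested rows, had 10 rises and 11 falls (median log2 change -0.04). TMEM144, a predicted carbohydrate carrier, had 1223, 1234 and 1083 normalized counts in knockdown libraries and 308, 297 and 300.2 in scrambled libraries (log2 change 1.96, SE 0.09, limma adjusted p = 7.24e-09). DIRC2, a lysosomal member, also rose (1.21, limma adjusted p = 1.28e-06), while NIPAL3, of a family of magnesium carriers, and UCP2, a mitochondrial uncoupling protein, fell (-1.30 and -1.0, limma adjusted p = 1.06e-06 and 1.56e-06). ABC transporters, the pumps that split ATP, had 6 rises and 6 falls among 27 tested rows (median -0.02). ABCA1, which exports cholesterol, and ABCD2, a peroxisomal carrier of very long-chain fatty acids, rose (0.80 and 3.42, limma adjusted p = 9.31e-07 and 2.32e-06), and ABCC3, a basolateral exporter of organic anions and bile acids, and ABCB10, of the inner mitochondrial membrane, fell (-2.33 and -1.26, limma adjusted p = 1.05e-06 and 1.15e-06). ABCC3 had 37.2, 27.1 and 25.8 normalized counts in knockdown libraries and 140.1, 167 and 155 in scrambled libraries, so it was lower together with SLC51A and SLC51B, the other basolateral bile acid exporter. Of the older-name list 61.8% were called and of the ABC transporters 44.4%, beside 51.9% of all transcripts.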

How the data were processed

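RNA of 6 Huh7 libraries was sequenced. The authors' deposited table gives 1 signal per RefSeq transcript and library, which per the file's values is a scaled square root of reads plus 0.375; whole reads came back for every row within 0.05. The submitters' processing notes name HISAT2 2.0.4, HTSeq 0.6.1 and the build hg38. Those notes and the labels do not state the annotation, the strand setting or the treatment of shared reads (not given in the sources used here).

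Normalized counts (reads times the library's deposited scale) were tested with limma 3.58.1 in R 4.3.3, with lmFit and eBayes with a trend, on log2(normalized count + 1) for transcripts with a mean of at least 10. P-values were adjusted by Benjamini-Hochberg over all transcripts tested, with a threshold of 0.05. SE is the standard error of the log2 change. Count-model tests had been planned as alternatives but were not run, because the deposited unit is not a count; limma-voom on the recovered reads was. Libraries held 6651413 to 10487862 reads, which bounds the precision of sparse transcripts. Replicates differed by 5.50 to 9.70 times the sampling noise (chi-square per degree of freedom), so none was counted as a duplicate. On simulated data with 8434 transcripts tested for this comparison, the test recovered 32% of transcripts simulated with a 1.25-fold change, 60% of those with 1.5-fold, 90% of those with 2-fold and 94% of those with 4-fold. False calls made up 10 of 148. Each percentage is of the 50 transcripts simulated per fold change, of which 46 to 48 passed the filter. The simulation used 1 dispersion for all transcripts and changed only a small share of them. In the data 51.9% were called, so these rates need not carry over.

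The members and lists were chosen with earlier results of these data known. Named transcripts were the 12 largest called rises and 12 largest called falls with a mean of at least 50 and groups that did not overlap, a fixed list of 26 symbols, genes with 2 or more tested rows, the most abundant row, and the called row of smallest p per family; of each other list, up to 4 by smallest p. Other called carriers are named with their family. Of 188 rows, 184 matched a RefSeq gene and 181 a GENCODE 29 model on GRCh38, and 149 a RefSeq promoter (GRCh38.p14).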

Additional observations from a re-analysis of the deposited data

How the results depend on the processing

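Over the other settings (scaling, pseudocount, filter, variance trend, limma-voom, replicate block, sums per gene and leaving out each library), 999 of 1028 values of single named transcripts kept their direction and side of the threshold, 10 gained a call, 18 lost one and 1 reversed. The reversal was SLC38A10 NM_138570, 0.50 (limma adjusted p = 0.00088) when the rows of a gene were summed, where it takes the value of the abundant row. The ABL1 transcript NM_005157 likewise became -1.33 (adjusted p = 0.000116) when summed with the other ABL1 row; leaving out each library gave 0.99 to 1.27. The carriers' median log2 change was 0.13 with equal library totals and -0.0852 to -0.0248 without single libraries, with 30 to 39 carriers called higher and 35 to 40 called lower. A threshold of 0.01 gave 29 higher and 31 lower, and a minimum mean of 50 gave 29 and 37. Of the partner genes, 1 was called lower with equal totals and 1 without the variance trend, beside 3. With a replicate block, 41 carriers were higher and 44 lower; the numbers do not pair the samples, since deviations of same-numbered libraries correlated by 0.05, 0.08 and 0.08. The block called SLC39A3 NM_144564 lower (adjusted p = 0.00245) and SLC1A5 higher (0.0487), gave 2 falls in place of 1 among metal carriers, and lost SLC26A6 and SLC7A4. edgeR and DESeq2 were not run. With equal totals 8 carriers lost their calls, among them SLC15A1 (adjusted p = 0.164), SLC3A1 (0.0990), SLC18A2 (0.0937) and SLC25A6, and without the variance trend 8 did, among them SLC41A2 (0.0542), SLC43A1 (0.127) and SLC25A6 (0.146); the cause was not tested. With no minimum mean, 41 carriers were called higher and 44 lower of 188; the 35 rows under it hold few reads.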
